A study of Mus musculus with 20 samples.

Results

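The genes described here encode 10 secreted growth factors that act on blood vessels, lymphatic vessels and the cells around them. They are the platelet-derived growth factors (PDGFs) *Pdgfa*, *Pdgfb*, *Pdgfc* and *Pdgfd*, the vascular endothelial growth factors (VEGFs) *Vegfa*, *Vegfb*, *Vegfc* and *Pgf*, and the angiopoietins *Angpt1* and *Angpt2*. They were taken by symbol from the count tables, and all 10 of these ligand genes were among the 43280 genes listed. Their promoters were looked up in lists of ATAC-seq peaks, regions of accessible chromatin in which a transposase inserts often.

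PDGFs signal through the receptor tyrosine kinases Pdgfra and Pdgfrb. Endothelial cells recruit Pdgfrb+ pericytes with PDGF-B, and epithelial PDGF-A acts on Pdgfra+ cells of the gut mesenchyme, whereas PDGF-C and PDGF-D are secreted in a latent form that proteases activate. VEGFs bind Flt1, Kdr and Flt4 on endothelium, with neuropilins as co-receptors, and angiopoietins bind the endothelial receptor Tek, to which *Angpt1* from perivascular cells is an agonist. Hypoxia is a textbook inducer of *Vegfa*.

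RNA-seq covered 8 embryonic and 4 adult libraries, with 2 in each group, and nothing in the labels says whether a group's libraries came from separate litters, so p-values measure the spread between these libraries. Embryonic libraries were from mesenchymal cells of stomach or intestine at E13.5, recorded as C57BL/6 and sorted for GFP. The reporting summary of the study instead describes mice of mixed strain backgrounds. It gives the Bapx1-cre line as C57BL/6 but the floxed *Eed* and reporter lines as mixed, so the background could differ between the genotypes. Controls were Bapx1-cre;Rosa26mTmG and knockouts (*Eed* KO) Eedfl/fl;Bapx1-cre;Rosa26mTmG, so both genotypes carried the Cre driver, which marks the *Bapx1* lineage, and the reporter. *Eed* encodes a core subunit of PRC2, the complex that methylates H3K27. Adult libraries were intestinal mesenchyme labelled WT or EED-KO. According to the methods of the study these were GFP+ cells from the small intestine, after removal of the villi, of mice with the tamoxifen-inducible *Pdgfrb*-CreERT2 driver and the same reporter, with or without floxed *Eed*. The labels give no age for these adult mice, but the methods of the study state an approximate age in weeks.

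Counts on genes ranged from 30236159 to 39606157 per embryonic library and from 11404712 to 15903642 per adult library. Expression is given as CPM (library-scaled counts, with the TMM method), unless TPM is named, which also divides by gene length. Intestinal *Eed* was at 38.1 and 40.1 CPM in control against 10.7 and 8.59 CPM in *Eed* KO libraries, and gastric *Eed* at 40.1 and 41.5 against 11.5 and 7.40 CPM. In the adult it was at 29.7 and 33.4 CPM in the control and at 25.7 and 25.0 CPM in the libraries labelled *Eed* KO. Both of the latter lay below both controls, but the difference was small and did not pass (log2 fold change -0.32, SE 0.21, edgeR adjusted p = 0.317). The study assessed deletion of *Eed* in such cells by a separate measurement, which was not used here. They are called the libraries labelled *Eed* KO, and each adult direction rests on that label. Replicate 1 of both *Eed* KO organs had 2 or 3 counts of *Xist*, the RNA of the inactive X chromosome, against 1304 or more in all other embryonic libraries. Because the samples were bulk RNA, fewer cells of a type and less RNA per cell could not be told apart.

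Markers of other cell types moved with genotype and organ, as the plot of marker lists shows. Summed CPM of 15 endothelial markers was, in the intestine, 28.8 and 33.8 for control and 80.3 and 81.0 for *Eed* KO libraries, and in the stomach 27.8 and 29.2 for control and 46.7 and 73.7 for *Eed* KO libraries. Of these 15 genes, 8 were called higher after intestinal and 9 after gastric *Eed* loss. Over all genes tested, 2.61% and 5.65% were called in either direction. *Sox17* was at 0 in the control intestine. In the adult, the summed CPM of 9 leukocyte markers was 634 and 896 in the control libraries and 16318 and 18062 in the libraries labelled *Eed* KO, and 7 of the 9 were called higher and 1 lower. *Ptprc*, the pan-leukocyte surface phosphatase, was at 64.3 and 57.2 CPM in adult control libraries and at 1077 and 925 CPM in those labelled *Eed* KO, although *Ptprc* had 0 or 1 count in each embryonic library. The 8 pericyte markers summed to 11619 and 13534 CPM in the adult control and to 3302 and 4532 CPM in the adult libraries labelled *Eed* KO (3 called lower), and the 9 mesenchyme markers to 28902 and 32018 against 16060 and 17436 CPM (4 called lower). Among the other adult lists, sums went from 200 and 222 to 277 and 457 CPM for the 15 endothelial markers (3 called higher). For 8 smooth muscle markers they went from 1891 and 2345 to 3233 and 3828 CPM (3 called higher). The 8 enteric neural crest markers went from 292 and 471 to 131 and 149 CPM in sum (1 called higher and 1 lower). Their median log2 fold change, over the 5 tested, was 2.00, opposite in direction to the sum. Of all adult genes tested, 12.3% were called higher and 7.23% lower.

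Between the control organs, 5 of 15 endothelial markers were called higher and 2 lower in the intestine, against 1.68% and 3.39% of all genes tested. The endothelial sums of these control libraries, given above, overlapped between the organs. Of the 9 mesenchyme markers, 2 were lower in the intestine (*Dpt* and *Dcn*). Enteric neural crest markers summed to 195 and 208 CPM in intestinal and to 55.5 and 67.0 CPM in gastric controls, with 1 of 8 called higher. Their median log2 fold change, intestine over stomach, was -0.17, so the higher sum did not hold for the median marker. Between the *Eed* KO organs, 4 of 8 smooth muscle markers were higher in the intestine, against 1.46% of all genes tested. The part of these cell types in the ligand results was not tested.

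**Figure D1:**
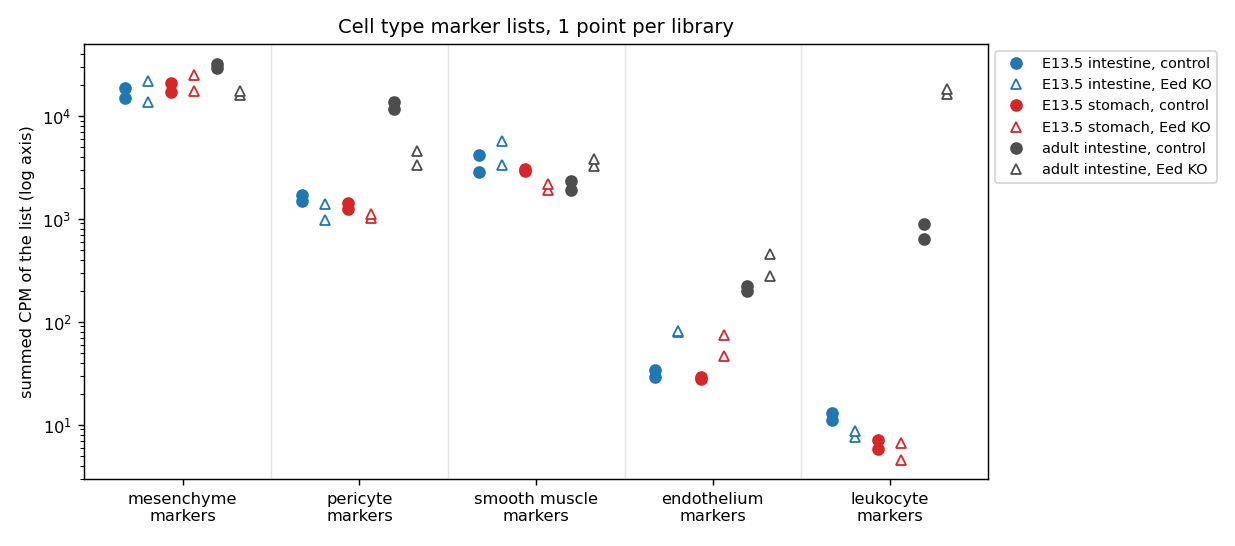
Summed CPM (log axis) of marker lists for mesenchyme, pericytes, smooth muscle, endothelium and leukocytes, with 1 point per library, circles for control and open triangles for Eed KO. Leukocyte markers lie between 4.58 and 12.9 CPM in the embryonic libraries and at 16318 and 18062 CPM in the adult libraries labelled Eed KO.

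Sequences are shown for the genes on which the results turn, *Pdgfd* and *Angpt1*, which differed between the embryonic organs, and *Pgf*, the most abundant of the 10 in the adult. RefSeq promoters on GRCm38.p6, the assembly of mm10, span 250 bases before and 50 bases after a start. They were available for 7 of the 10 genes (10 starts), and *Pdgfb*, *Angpt1* and *Angpt2* were not among them. *Pdgfd* has 1 start, at chr9:6168236-6168535 on the plus strand, and *Pgf* has 2, at chr12:85177264-85177563 and chr12:85175933-85176232 on the minus strand. Capitals mark 3 motifs searched on both strands: the ACGTG form of the hypoxia response core, the GC box GGGCGG and TATAAA.
Pdgfd promoter: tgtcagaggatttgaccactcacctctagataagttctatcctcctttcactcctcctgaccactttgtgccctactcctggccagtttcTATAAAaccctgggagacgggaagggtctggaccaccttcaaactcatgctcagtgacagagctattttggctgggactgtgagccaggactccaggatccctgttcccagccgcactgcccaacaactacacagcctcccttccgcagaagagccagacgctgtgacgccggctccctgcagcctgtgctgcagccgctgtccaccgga
Pgf upstream promoter: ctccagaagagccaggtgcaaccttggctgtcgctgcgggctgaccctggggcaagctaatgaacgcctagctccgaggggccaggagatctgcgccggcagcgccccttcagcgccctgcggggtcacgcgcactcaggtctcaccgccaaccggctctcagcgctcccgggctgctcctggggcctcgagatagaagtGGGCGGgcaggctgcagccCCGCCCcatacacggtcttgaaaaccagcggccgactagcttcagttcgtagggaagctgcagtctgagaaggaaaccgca
Pgf downstream promoter: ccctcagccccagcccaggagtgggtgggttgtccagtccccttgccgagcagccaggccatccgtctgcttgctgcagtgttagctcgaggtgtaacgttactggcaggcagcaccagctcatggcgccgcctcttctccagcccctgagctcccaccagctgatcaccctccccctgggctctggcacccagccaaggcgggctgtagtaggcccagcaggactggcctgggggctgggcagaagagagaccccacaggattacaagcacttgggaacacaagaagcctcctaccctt

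The *Pdgfd* promoter held TATAAA, which occurs in 13.6% of all 32851 promoters of this length, and neither of the other motifs. Its GC content was 56.7%, and its ratio of observed to expected CpG was 0.346, near the median of 0.384 over all promoters. The upstream *Pgf* promoter held 2 GC boxes, a motif present in 35.7% of all promoters, with a GC content of 66% and a CpG ratio of 0.704. None of the 3 motifs was in the downstream *Pgf* promoter (CpG ratio 0.23). GC boxes also occurred in both *Pdgfa* promoters, both *Vegfa* promoters and those of *Vegfb* and *Vegfc*, and the *Pdgfc* promoter held none of the 3 motifs. The ACGTG form of the hypoxia core was in the downstream *Vegfa* promoter alone among these 10, against 19.6% of all promoters. Other forms of the core, such as GCGTG, and sites outside these windows were not searched, so the core is not shown to be absent elsewhere. No ATAC-seq list had a peak over that *Vegfa* start, whereas each of the other starts had one in all 4 lists. The motif matches describe letters in a window and no binding.

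The other sequences are 300-base windows, plus strand, from introns in which a peak was listed in both genotypes of 1 organ and in neither genotype of the other. The *Pdgfd* window is chr9:6314987-6315286, with peaks in both stomach lists, and the *Angpt1* window is chr15:42510008-42510307, with peaks in both intestinal lists. Capitals would mark the forkhead core TGTTTAC and the GATA sequence AGATAA on either strand, but neither window holds one. Of 162108 accessible regions, 5.32% held the first in a window of this length and 14.1% the second.
Pdgfd intronic window: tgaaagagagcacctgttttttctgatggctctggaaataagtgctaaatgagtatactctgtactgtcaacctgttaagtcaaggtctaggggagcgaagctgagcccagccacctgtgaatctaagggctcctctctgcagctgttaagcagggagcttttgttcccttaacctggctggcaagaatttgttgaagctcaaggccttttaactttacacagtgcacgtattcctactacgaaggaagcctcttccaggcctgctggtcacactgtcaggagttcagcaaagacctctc
Angpt1 intronic window: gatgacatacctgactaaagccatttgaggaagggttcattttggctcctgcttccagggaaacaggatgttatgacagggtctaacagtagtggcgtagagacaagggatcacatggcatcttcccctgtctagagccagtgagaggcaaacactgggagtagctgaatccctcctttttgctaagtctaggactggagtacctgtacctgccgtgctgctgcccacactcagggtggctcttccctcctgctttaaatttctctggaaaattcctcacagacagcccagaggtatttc

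Per gene length, *Vegfb* was the most abundant of the 10 ligands in each embryonic group, at 109 ± 2.03 TPM in the control intestine and 92.6 ± 6.33 TPM in the control stomach (SD, n = 2). *Pdgfc*, at 57.8 ± 4.58 TPM, and *Angpt1*, at 55.2 ± 0.00808 TPM, came next in the control intestine and differed by less than the spread of *Pdgfc*. *Pdgfa* followed at 35.3 ± 0.0223 TPM. *Pgf* at 28.4 ± 2.40 TPM and *Vegfa* at 26.2 ± 4.18 TPM could not be ordered beyond their spread, and both libraries of *Vegfc*, at 19.7 ± 3.74 TPM, were lower. *Pdgfd* was at 4.83 ± 1.34 TPM, and *Angpt2* and *Pdgfb* were the lowest at 1.19 ± 0.283 and 0.564 ± 0.195 TPM.

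The control stomach kept *Vegfb* and *Pdgfc* in front, followed by *Pgf* at 36.0 ± 0.845 TPM and *Pdgfa* at 30.6 ± 0.533 TPM. *Angpt1* (26.9 ± 5.06 TPM) and *Vegfa* (25.6 ± 2.49 TPM) lay within each other's spread, and the libraries of *Pdgfd* (18.2 ± 1.81 TPM) and *Vegfc* (16.7 ± 0.982 TPM) overlapped. *Angpt2* and *Pdgfb* were again lowest. The 10 genes summed to 338 TPM in the control intestine and 308 TPM in the control stomach.

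The adult control intestine had another order. *Pgf* was at 131 ± 0.473 TPM and made up 53.2% of the summed TPM of the 10 genes, and *Pdgfd* followed at 54.0 ± 1.58 TPM. *Vegfc*, *Pdgfa*, *Angpt1* and *Angpt2* lay between 12.1 and 15.6 TPM without a clear order, *Vegfb* was at 3.84 ± 0.276 TPM, and *Pdgfb* at 0.710 ± 0.542 TPM and *Vegfa* at 0.685 ± 0.0348 TPM were lowest and could not be ordered. Library kit, cell gate and depth all differ with age, so embryonic and adult levels were not tested against each other.

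**Figure D2:**
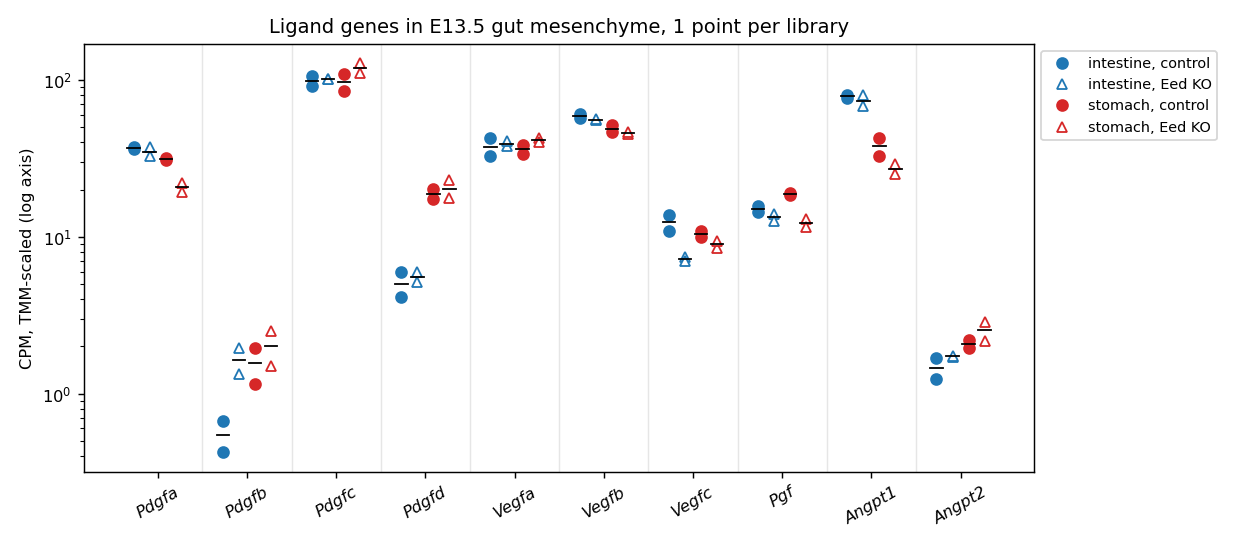
CPM of the 10 ligand genes (log axis) in 8 embryonic libraries, blue for intestine and red for stomach, filled circles for control and open triangles for Eed KO, with group means as black bars. Intestinal libraries span 4.10 to 5.93 CPM for *Pdgfd* and 68.1 to 79.7 CPM for *Angpt1*, and gastric libraries 17.4 to 22.9 CPM and 25.1 to 42.8 CPM.

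The first comparison asked which ligand genes differed between intestinal and gastric mesenchyme. *Pdgfd* was lower and *Angpt1* was higher in the intestine, and these were the 2 of 10 genes called, against 5.07% of the 16218 genes tested (1.68% higher and 3.39% lower). A call needed an edgeR adjusted p under 0.05 together with a log2 fold change outside -1 to 1. The median log2 fold change of the 10 was 0.04, against 0.00 over all genes tested. The libraries of the organs did not overlap for 8 of the 10 genes, and for 51.2% of all genes tested.

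*Pdgfd* (chr9:6168612-6378843, plus strand), whose latent product binds Pdgfrb once cleaved, was at 4.10 and 5.92 CPM in intestinal and at 17.4 and 20.1 CPM in gastric control libraries. Both gastric libraries lay above both intestinal ones. Its log2 fold change, intestine over stomach, was -1.91 (SE 0.22, edgeR adjusted p = 0.00251). *Pdgfd* was at 5.12 and 5.93 CPM in intestinal and at 17.7 and 22.9 CPM in gastric *Eed* KO libraries. Here too the organs did not overlap (log2 fold change -1.87, SE 0.22, edgeR adjusted p = 0.00395).

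*Angpt1* (chr15:42424727-42676977, minus strand), which stabilizes vessels through Tek, was at 79.7 and 77.2 CPM in intestinal and at 32.6 and 42.8 CPM in gastric control libraries. The intestinal libraries were both higher, with a log2 fold change of 1.06 (SE 0.15, edgeR adjusted p = 0.00735). This lay close to the fold threshold, and the call was lost without replicate 1 of the control intestine (1.05, adjusted p = 0.0576) and without replicate 1 of the control stomach (0.88, adjusted p = 0.0462). With *Eed* lost, *Angpt1* was at 79.6 and 68.1 CPM in intestinal and at 28.9 and 25.1 CPM in gastric libraries. That difference was 1.45 on the log2 scale (SE 0.16, edgeR adjusted p = 0.00289), and it was called without any single library. *Angpt1* exons share 283 of 4256 bases with a gene on the opposite strand, *Gm17473*, and the strand setting of the embryonic counting is not given in the sources used here.

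With spike-in totals as the scale, the log2 fold changes between the control organs were -1.64 for *Pdgfd* and 1.34 for *Angpt1*, and -2.16 and 1.20 between the *Eed* KO organs, and none was called (adjusted p from 0.366 to 1). Of the other 8 genes, *Pdgfb* (chr15:79995900-80014808, minus strand), the ligand that recruits pericytes, had the largest organ difference. It was at 0.421 and 0.673 CPM in intestinal and at 1.16 and 1.96 CPM in gastric control libraries, a log2 fold change of -1.53 (SE 0.45) that did not pass (edgeR adjusted p = 0.102). These intestinal libraries held 15 and 20 counts of it, and the gastric ones 40 and 77. Adjusted p was 0.0425 with DESeq2, 0.0212 with no filter on low counts and 0.0405 with a replicate block.

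Log2 fold changes of the remaining 7 genes between the control organs ran from -0.52 for *Angpt2* to 0.26 for *Vegfb*. Between the *Eed* KO organs, 2 of 10 genes were called, against 4.40% of all genes tested (1.46% higher and 2.94% lower), 7 of 10 did not overlap, against 44.5%, and their median log2 fold change was -0.16 against 0.00 for all genes. *Pdgfa* (chr5:138976014-138997370, minus strand), the ligand of Pdgfra, was at 32.5 and 37.4 CPM in intestinal and at 22.0 and 19.3 CPM in gastric *Eed* KO libraries. It passed the p threshold but not the fold threshold (log2 fold change 0.76, SE 0.11, edgeR adjusted p = 0.0105).

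Among the other genes of the pathway, *Figf*, the symbol in these tables for the lymphatic growth factor VEGF-D, was lower in the control intestine, at 0.519 ± 0.0205 CPM against 2.92 ± 0.916 CPM in the control stomach (SD, n = 2, log2 fold change -2.48, SE 0.38, edgeR adjusted p = 0.00912). *Angpt4*, a further angiopoietin, was at 3.90 ± 0.150 and 2.32 ± 0.250 CPM and did not pass. Of 10 receptors and co-receptors, 1 was called lower, *Flt4*, the VEGF-C and VEGF-D receptor, at 7.53 ± 3.06 CPM against 31.7 ± 9.19 CPM in the stomach (log2 fold change -2.08, SE 0.42, edgeR adjusted p = 0.0264). *Nrp1*, a VEGF co-receptor, passed on p alone, at 307 ± 0.997 CPM against 197 ± 1.83 CPM (0.64, adjusted p = 0.0140). *Pdgfra* and *Pdgfrb* were abundant in both organs, *Pdgfra* at 894 ± 13.9 CPM in intestinal and 1199 ± 0.130 CPM in gastric and *Pdgfrb* at 413 ± 54.0 and 310 ± 58.2 CPM in the same libraries, whereas *Flt1*, *Kdr*, *Tek* and *Tie1* were each at 10.8 CPM or less.

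Of 19 tested processing, matrix and antagonist genes, 1 was higher and 1 lower in the control intestine, against 1.68% and 3.39% of all genes tested. The lower one was *Pcsk5*, a proprotein convertase, at 13.1 ± 1.75 CPM against 41.4 ± 6.92 CPM (log2 fold change -1.66, edgeR adjusted p = 0.00985), and the higher one *Nrg1*, an EGF family ligand (1.20, adjusted p = 0.0289). Among 5 tested angiopoietin-like genes, which bind no Tie receptor, *Angptl1* (1.14) and *Angptl6* (1.64) were higher and *Angptl7* (-3.83) lower. 

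The pattern of *Pdgfd* over the 8 embryonic libraries was most like that of *Dpt*, *Tmem178* and *Car11* (Pearson r of log2 CPM 0.995, 0.994 and 0.994), and that of *Angpt1* most like *9930012K11Rik*, *Bmp5* and *Rhoc* (0.993, 0.991 and 0.991). These coefficients describe 8 libraries of 4 groups and were picked as the highest of all genes tested. *Dpt* is among the mesenchyme markers used here.

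The next comparisons asked which ligand genes changed with *Eed* loss in the embryo. None of the 10 was called in the stomach, where 5.65% of all genes were called, or in the intestine, where 2.61% were, with edgeR. At an unadjusted p under 0.05, 3 of the 10 passed in the stomach, against 22.6% of all genes tested, and 2 in the intestine, against 14.0%. DESeq2 called 0 and 1. Their median log2 fold changes were 0.01 and -0.02, against 0.00 and 0.01 over all genes tested. In the stomach *Eed* KO and control libraries did not overlap for 7 of 10 genes, against 55.0% of all genes tested, and in the intestine for 5 of 10, against 38.3%.

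*Pdgfa* was at 31.0 and 31.8 CPM in the control stomach and at 22.0 and 19.3 CPM in the *Eed* KO stomach. Both *Eed* KO libraries were lower, and the difference of -0.60 (SE 0.11, edgeR adjusted p = 0.0213) passed on p but not on fold. In the intestine *Pdgfa* was at 37.4 and 36.2 CPM in control and at 32.5 and 37.4 CPM in *Eed* KO libraries, which overlapped. *Pdgfa* exons share 813 of 3119 bases with a gene on the opposite strand, *6330403L08Rik*, so the same limit applies.

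*Pgf* (chr12:85166639-85177296, minus strand), the placental growth factor and a ligand of Flt1, showed the same pattern in the stomach, at 18.4 and 19.1 CPM in control and 12.9 and 11.6 CPM in *Eed* KO libraries. The groups did not overlap and the difference of -0.61 (SE 0.12, edgeR adjusted p = 0.0264) was below the fold threshold. In the intestine it was at 14.3 and 15.7 CPM in control and at 14.0 and 12.7 CPM in *Eed* KO libraries (-0.17, SE 0.12, adjusted p = 0.694). *Angpt1* differed by -0.48 in the stomach (SE 0.15, adjusted p = 0.114) and by -0.09 in the intestine (SE 0.15, adjusted p = 0.918).

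*Vegfc* (chr8:54077532-54186454, plus strand), the main lymphatic growth factor, was at 10.9 and 13.8 CPM in the control intestine and at 7.41 and 7.02 CPM in the *Eed* KO intestine. All *Eed* KO values lay below the control values, and the log2 fold change of -0.78 (SE 0.16, edgeR adjusted p = 0.0493) did not reach the fold threshold. Its stomach values were 9.91 and 10.8 CPM in control and 8.53 and 9.46 CPM in *Eed* KO libraries (-0.20, SE 0.16, adjusted p = 0.494).

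*Pdgfb* went from 0.421 and 0.673 CPM in control to 1.95 and 1.34 CPM in *Eed* KO libraries of the intestine, or from 15 and 20 counts to 74 and 47. The groups did not overlap, but the log2 fold change of 1.60 (SE 0.45) did not pass (edgeR adjusted p = 0.124), whereas DESeq2 (adjusted p = 0.0416) and the fit with no filter on low counts (adjusted p = 0.0221) called it. Endothelial marker sums were higher in the same *Eed* KO libraries, and their part in this value was not tested. In the stomach *Pdgfb* was at 1.16 and 1.96 CPM in control and at 1.502 and 2.496 CPM in *Eed* KO libraries, and overlapped.

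*Pdgfc* (chr3:81036416-81214040, plus strand), *Pdgfd*, *Vegfa* (chr17:46016993-46032377, minus strand), *Vegfb* (chr19:6982473-6987651, minus strand) and *Angpt2* (chr8:18690263-18741562, minus strand) had log2 fold changes between -0.10 and 0.30 in the stomach and between -0.07 and 0.25 in the intestine, none of which passed. *Vegfa*, for instance, was at 38.6 and 33.8 CPM in the control stomach and 42.6 and 39.9 CPM in the *Eed* KO stomach. The organ by genotype interaction called 0 of 10 genes, against 0.462% of all genes tested (adjusted p under 0.2). At an unadjusted p under 0.05 there were 3 of 10, against 5.88% of all genes tested, and DESeq2 called 0. The smallest of the 10 unadjusted p-values was that of *Pdgfa*, whose interaction was 0.53 (SE 0.16, edgeR adjusted p = 0.539).

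These embryonic changes are relative to the bulk of genes. Scaled by spike-in totals, the median gene was 2.39 higher (log2) in the *Eed* KO than in the control stomach and 1.85 higher in the intestine, and under that scaling 10 and 9 of the 10 ligand genes were called higher, including *Pdgfa* and *Pgf* in the stomach (both 1.75). Counts on spike-ins were 12108 and 4871 in the *Eed* KO stomach libraries against 37590 and 36020 in the controls.

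**Figure D3:**
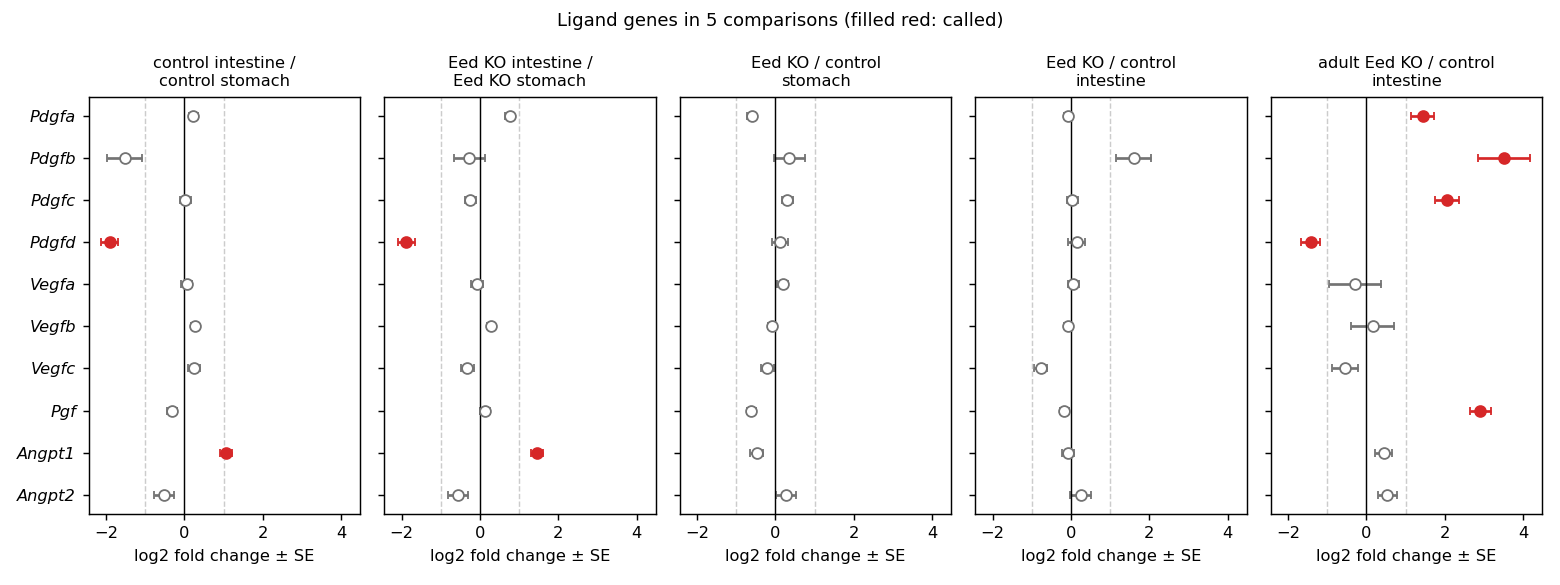
Log2 fold change with its standard error for the 10 ligand genes in 5 comparisons, filled red where called, with dashed lines at a log2 fold change of 1 in either direction. *Pdgfd* and *Angpt1* are called between the organs in both genotypes, no gene is called for *Eed* loss in either embryonic organ, and 5 genes are called in the adult.

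Among the 10 receptors and co-receptors, *Flt1* and *Tie1*, both endothelial, were called higher with *Eed* loss in each organ. *Flt1* rose from 0.563 ± 0.147 to 2.52 ± 1.55 CPM in the stomach (log2 fold change 2.16, edgeR adjusted p = 0.0398), and from 0.564 ± 0.202 to 3.15 ± 0.271 CPM in the intestine (2.49, adjusted p = 0.0459, SD, n = 2). *Tie1* rose by 2.17 and 2.48 on the log2 scale. Of the other receptors and co-receptors, *Kdr*, *Tek*, *Nrp1*, *Nrp2*, *Flt4*, *Pdgfrb* and *Pdgfrl* did not pass in either organ, and *Pdgfra* passed on p alone in the stomach, at 1199 ± 0.130 against 853 ± 3.34 CPM (-0.49, adjusted p = 0.0498). *Flt1* and *Tie1* are also in the endothelial marker list, whose sum was higher in the same libraries.

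Of 19 processing, matrix and antagonist genes, 2 were higher with gastric and 1 with intestinal *Eed* loss. Over all genes tested, 5.65% and 2.61% were called in either direction. *St14*, which encodes the protease matriptase, was higher in both organs (2.12 and 3.08) from below 1 CPM in the controls, and *Adamts1*, an antiangiogenic metalloprotease, rose from 73.9 ± 5.50 to 192 ± 23.1 CPM in the stomach (1.38, edgeR adjusted p = 0.00240). Of 18 hypoxia response genes, *Adm*, which encodes the vasoactive peptide adrenomedullin, was higher in both organs (1.68 and 1.90), from 0.474 ± 0.0146 CPM in the control stomach and 0.505 ± 0.000667 CPM in the control intestine, and *Epas1*, the hypoxia factor of endothelium, in the stomach (2.83). *Angptl7* rose from 1.34 ± 0.377 to 19.8 ± 7.88 CPM and *Angptl6* fell from 9.94 ± 2.38 to 2.53 ± 0.440 CPM in the stomach, with log2 fold changes of 3.87 and -1.97. *Figf* and *Angpt4* did not pass with *Eed* loss in either embryonic organ.

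The last comparison asked which ligand genes differed in adult intestinal mesenchyme between libraries labelled *Eed* KO and control. *Pgf*, *Pdgfb*, *Pdgfc* and *Pdgfa* were higher and *Pdgfd* was lower, so that 5 of 10 genes were called, against 19.6% of 15039 genes tested (12.3% higher and 7.23% lower). The median log2 fold change of the 10 was 0.48, against 0.00 over all genes tested, and the same 5 genes were called without each library in turn.

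*Pgf* was at 79.6 and 82.3 CPM in the control and at 476 and 737 CPM in the libraries labelled *Eed* KO. Both were far above both controls (log2 fold change 2.91, SE 0.26, edgeR adjusted p = 0.000536). Per length it went from 131 ± 0.473 to 659 ± 153 TPM, and from 53.2% to 88.7% of the summed TPM of the 10 ligand genes.

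*Pdgfb* was at 0.366 and 1.26 CPM in the control libraries, which is 5 and 18 counts, and at 6.72 and 12.1 CPM in the libraries labelled *Eed* KO, which is 67 and 156 counts. The groups did not overlap, although the control values differed among themselves (log2 fold change 3.51, SE 0.67, edgeR adjusted p = 0.0102). *Pdgfc*, whose product binds Pdgfra, was at 4.46 and 6.10 CPM in control and at 23.5 and 20.5 CPM in libraries labelled *Eed* KO. Again both of the latter were higher (2.05, SE 0.30, edgeR adjusted p = 0.00371).

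*Pdgfa* was at 17.5 and 15.3 CPM in the control and at 33.8 and 54.6 CPM in the libraries labelled *Eed* KO. The difference (1.43, SE 0.28, edgeR adjusted p = 0.0119) was not called with spike-in totals as the scale (0.99, adjusted p = 0.204), which lowered the median gene by 0.42 (log2). Adult counting used no strand, so reads of *Pdgfa* and its antisense neighbour *6330403L08Rik* could not be told apart, as for the 147 bases of 5089 that *Pdgfc* shares with *Gm16000* and those that *Angpt1* shares with *Gm17473*.

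*Pdgfd* was at 63.4 and 68.0 CPM in the control and at 20.3 and 28.5 CPM in the libraries labelled *Eed* KO. It was the 1 ligand gene called lower, and both of these libraries lay below both controls (log2 fold change -1.43, SE 0.23, edgeR adjusted p = 0.00557). Sums of pericyte, mesenchyme and enteric neural crest markers were lower in the same libraries labelled *Eed* KO, although the median enteric neural crest marker tested was higher. Sums of leukocyte, endothelial and smooth muscle markers were higher there, and the part of these cell types in the adult results was not tested.

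**Figure D4:**
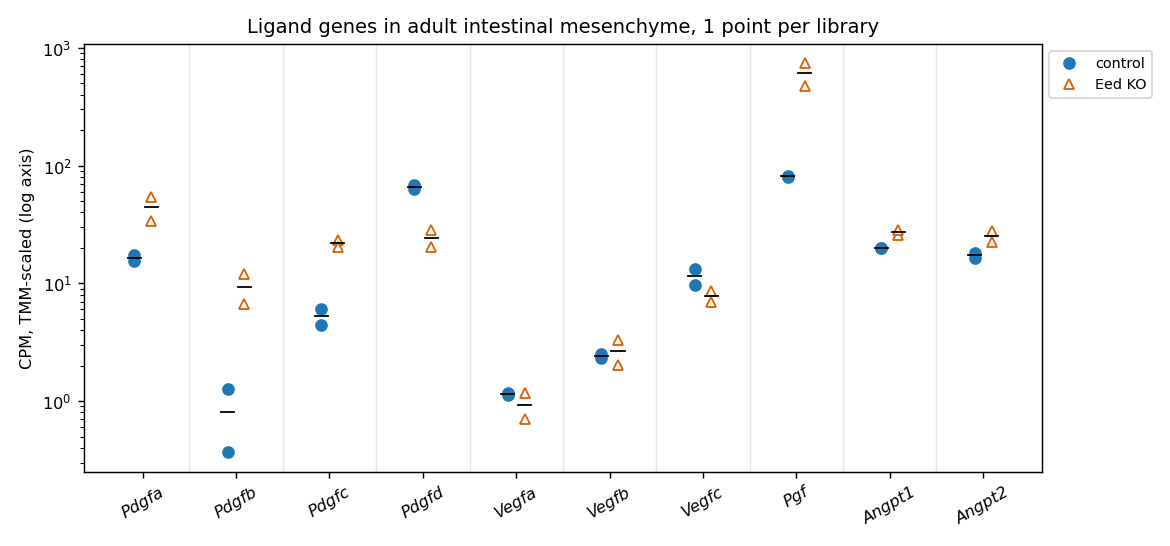
CPM of the 10 ligand genes (log axis) in the 4 adult libraries, blue circles for control and open orange triangles for those labelled Eed KO, with group means as black bars. *Pgf*, *Pdgfb*, *Pdgfc* and *Pdgfa* lie higher and *Pdgfd* lower in both libraries labelled Eed KO.

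The other 5 ligand genes were not called. *Angpt1* was at 20.1 and 19.97 CPM in control and 25.8 and 28.6 CPM in libraries labelled *Eed* KO (0.44, SE 0.22, edgeR adjusted p = 0.194), and *Angpt2*, the context-dependent Tek ligand, at 18.2 and 16.5 against 22.3 and 27.8 CPM (0.53, SE 0.24, adjusted p = 0.162). Neither overlapped between the groups, nor did 8 of the 10 ligand genes in all, against 65.3% of all genes tested. *Vegfc* was at 9.66 and 13.3 CPM in control and 6.92 and 8.66 CPM in libraries labelled *Eed* KO (-0.56, SE 0.34, adjusted p = 0.274). *Vegfa*, with 7 to 16 counts per library, and *Vegfb*, with 20 to 43, were near 1 and 2 to 4 CPM, with standard errors of 0.67 and 0.55, so that a change as large as the fold threshold was not detectable at this depth.

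Among the pathway genes in the adult, *Angpt4* was higher in the libraries labelled *Eed* KO (7.24 ± 1.55 to 22.2 ± 7.04 CPM, log2 fold change 1.62, edgeR adjusted p = 0.0142) and *Figf* was at 27.8 ± 1.63 and 34.7 ± 12.04 CPM without passing. Of 10 receptors and co-receptors, *Pdgfra* fell from 1035 ± 167 to 298 ± 41.0 CPM (-1.79, SE 0.22, edgeR adjusted p = 0.00180), and *Flt4* was higher (3.18, SE 0.75, adjusted p = 0.0237) with a wide spread, at 1.84 ± 1.12 and 16.6 ± 14.3 CPM. *Pdgfrb*, whose promoter drives the Cre, was at 143 ± 27.1 and 91.0 ± 2.51 CPM (-0.65, adjusted p = 0.0624). *Nrp2* passed on p alone (-0.89, adjusted p = 0.0170), while *Flt1*, *Kdr*, *Tek*, *Tie1*, *Nrp1* and *Pdgfrl* did not pass.

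Of 19 processing, matrix and antagonist genes, 3 were higher and 4 lower in the adult libraries labelled *Eed* KO. Over all genes tested, 12.3% were called higher and 7.23% lower. *Plau*, the urokinase that cleaves latent PDGF-D, rose from 1.04 ± 0.0187 to 23.1 ± 9.61 CPM (log2 fold change 4.46, SE 0.44, edgeR adjusted p = 0.000708), with *Thbs1* (2.22) and *Adamts1* (1.49), which restrain angiogenesis. The convertases *Pcsk5* and *Pcsk6* fell, from 245 ± 19.3 to 57.3 ± 11.4 CPM and from 59.5 ± 7.60 to 9.60 ± 2.501 CPM (-2.10 and -2.63), as did the matrix genes *Sparc* (-1.12) and *Ctgf* (-1.36). *Plat*, which cleaves latent PDGF-C, was at 151 ± 16.1 and 181 ± 91.6 CPM. Of 18 hypoxia response genes, 3 were higher, namely *Hif1a* (1.46), the glucose transporter *Slc2a1* (2.83) and the carbonic anhydrase *Car9* (3.12), against 12.3% of all genes tested, and the median of the 18 was 0.26. Among 5 tested angiopoietin-like genes, *Angptl1* (-1.58) and *Angptl2* (-1.20) were lower, against 7.23% of all genes tested.

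Accessible chromatin was listed at the promoter of all 10 ligand genes in each of the 4 embryonic conditions. A peak covered the start of the gene model in all 4 lists for all 10, whereas 79.6% of 16216 tested genes had this, and 86.9% had a peak within 1000 bp of the start in all 4. The lists hold 1 pooled set of peaks per condition, so differences between them have no replicate check and were not tested.

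By their medians, promoter peaks of the 10 genes were lower and wider than those of all tested genes, without a test. In the control intestine their fold enrichment over background ran from 3.29 to 8.40 with a median of 4.13, against a median of 6.91 for tested genes with a promoter peak, and their median width was 2050.5 bp against 1104 bp. The medians in the control stomach were 4.01 and 6.80 for fold enrichment and 2508 and 1122 bp for width. The *Pdgfd* peak was an exception, being higher and narrower (583 to 934 bp) than the median of tested genes in each list. The *Vegfb* peak was narrower than that median in both controls (1057 and 1027 bp) and in the *Eed* KO stomach (1148 bp). In the *Eed* KO intestine it was wider (1722 bp).

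*Pdgfd* had the highest enrichment of the 10 in each list, at 8.40 in the control intestine, 7.32 in the control stomach, 9.53 in the *Eed* KO intestine and 8.12 in the *Eed* KO stomach. Enrichment was thus not higher in the stomach, where its RNA was higher. *Angpt1* had 4.73 and 4.72 in the control intestine and stomach and 4.82 and 5.18 in the *Eed* KO intestine and stomach, values closer to each other than its CPM in the organs. *Pgf*, which had a single broad region over both starts, was between 3.72 and 4.08, and *Pdgfa* had 3.40 and 3.09 in the control intestine and stomach and 2.87 and 2.78 in the *Eed* KO organs.

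Within the genes and 10000 bp on either side, the 4 lists merged into 97 regions. Of these, 50.5% were in all 4 lists, against 46.0% of the 162108 regions of the genome. Regions listed in both genotypes of the intestine and in no gastric list numbered 3, at *Pdgfc*, *Angpt1* and *Angpt2*, or 3.09% against 2.70% of all regions, and 1, at *Pdgfd*, had the reverse pattern, or 1.03% against 3.88%. *Vegfb* had 5 regions, all in all 4 lists.

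The *Pdgfd* locus held 13 regions, 4 of them in all lists. The gastric region (chr9:6314964-6315311), of which the central 300 bases are printed above, lies in an intron 146525 bp from the start and had a fold enrichment of 5.14 in the control and 3.33 in the *Eed* KO stomach, with -log10 q of 9.96 and 3.59. A region 2490 bp from the start was listed in both gastric conditions (3.36 and 3.76) and in the *Eed* KO intestine (2.91) but not in the control intestine, as was one at 12653 bp. The *Angpt1* locus held 18 regions, 8 of them in all lists. Its intestinal region (chr15:42510015-42510301), whose window is also printed above, had a fold enrichment of 2.68 in the control and 2.82 in the *Eed* KO intestine, with -log10 q of 1.77 and 2.20. These were weak peaks, and the control one lay below a -log10 q of 2, a cutoff that other peaks of the lists also miss.

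**Figure D5:**
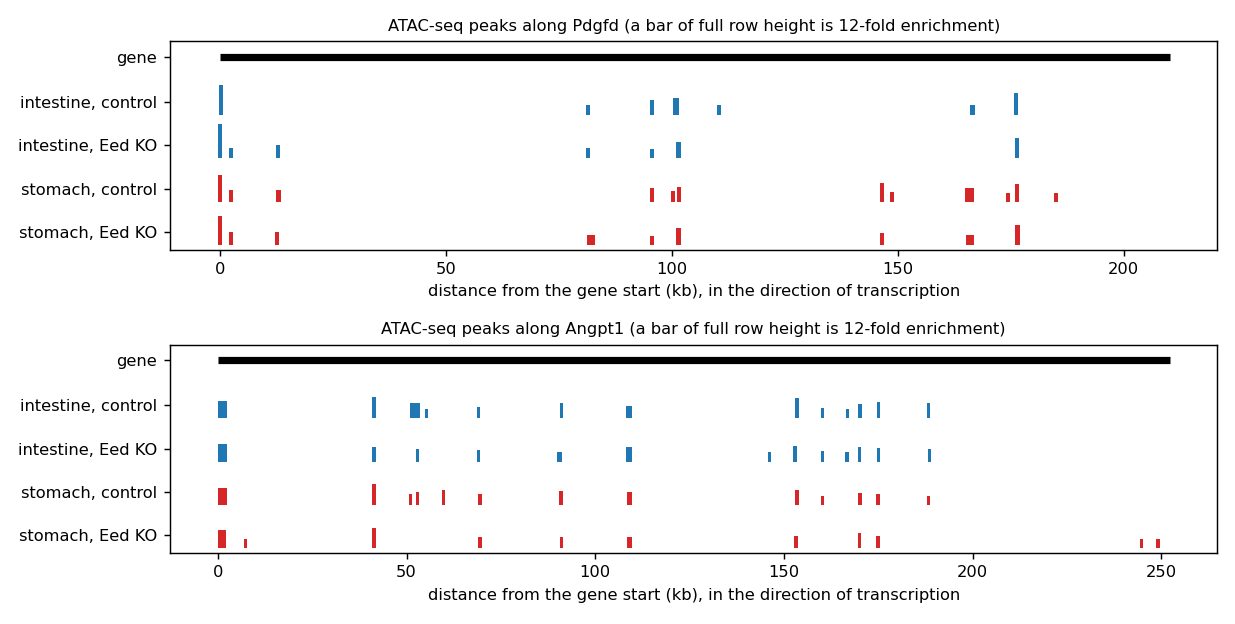
ATAC-seq peaks along *Pdgfd* and *Angpt1* in 4 pooled lists (blue intestine, red stomach), by distance from the gene start in kb in the direction of transcription, with bar height as fold enrichment and the gene as a black line. Narrow peaks are widened for visibility, and the promoter peak stands at the left in every list.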

How the data were processed

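Embryonic libraries were stranded poly(A) RNA-seq and adult ones unstranded low-input RNA-seq, with spike-in RNA. The authors trimmed reads with Trimmomatic 0.32, aligned them with STAR 2.5.1b to GRCm38/mm10 and deposited raw read counts per gene symbol from featureCounts on GENCODE vM4. Per the file headers, adult counts are unstranded and come with the Length used here for TPM. For ATAC-seq the authors pooled replicates and called broad peaks with MACS2 2.1.2. The deposited lists give a fold enrichment (a ratio to background), a display score and significance values per peak, of which the fold enrichment and the -log10 q were used.

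Counts on 99 spike-in transcripts were kept out of library sizes. Genes were tested by quasi-likelihood with edgeR 4.0.16 (R 4.3.3, limma 3.58.1) after TMM scaling and filterByExpr, with Benjamini-Hochberg adjustment over 16218 embryonic or 15039 adult genes. Embryonic libraries were fitted together (4 groups) and adult ones apart (2 groups). A gene was called at an adjusted p under 0.05 (0.2 for the interaction) with a log2 fold change outside -1 to 1. A count of 0 allows up to 0.0992 CPM in the shallowest embryonic and 0.263 CPM in the shallowest adult library, for counting error only. Peaks were joined to genes within 1000 bp of the start of the gene model. Tests were checked on simulated data. Alternatives were DESeq2 1.42.0, other scalings, no filter, no fold threshold, a replicate block, each library left out, and other windows and q cutoffs. All 10 ligand genes, the receptors and the other ligands are named whatever their values, of other pathway genes those called, and the 3 genes nearest in pattern to each ligand gene called between embryonic groups. The regions printed, their motifs and the examples not called were chosen after their values were seen. The ligand genes and the lists were chosen with earlier results of these data known. Python 3.11.15, pandas 2.3.3, numpy 2.4.6 and matplotlib 3.10.9 were used for tables and figures.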

Additional observations from a re-analysis of the deposited data

Results flagged for a closer look

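For 3 of the ligand genes, every library without *Eed* lay on one side of its controls in an embryonic organ and every adult library labelled *Eed* KO lay on the other side of its own. Over all genes tested, the genotypes did not overlap for 55.0% in the embryonic stomach, 38.3% in the embryonic intestine and 65.3% in the adult. The share with opposite directions was not counted, so this count of 3 has no background to set against it. In the adult, *Eed* itself did not pass, and leukocyte markers were higher in the libraries labelled *Eed* KO. *Pdgfa* differed by -0.60 on the log2 scale in the embryonic stomach and by 1.43 in the adult intestine. *Pgf* differed by -0.61 in the embryonic stomach and by -0.17 in the embryonic intestine, against 2.91 in the adult intestine. *Angpt1* differed by -0.48 in the embryonic stomach and by 0.44 in the adult intestine, and neither value passed the test. The difference between ages was not tested for any of them, since library kit, Cre driver and cell gate change with age. With spike-in totals as the scale, all of the embryonic values are positive.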

How the results depend on the processing

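Counts of called ligand genes stayed within 1.5 times the value in the report under 64 of 74 alternatives, and all 10 promoters kept a peak in all 4 lists under each of 4 other peak settings. Of the 10 exceptions, 4 came from scaling by spike-in totals, which called 0 of 10 between the control organs, 10 in the *Eed* KO stomach, 9 in the *Eed* KO intestine, 0 between the *Eed* KO organs and 4 in the adult, while the median gene shifted by 0.30, 2.39, 1.85, -0.24 and -0.42 (log2). Under it the fold changes that turned positive were those of *Pdgfa* (1.75), *Vegfb* (2.30), *Vegfc* (2.21), *Pgf* (1.75) and *Angpt1* (1.85) in the stomach and *Pdgfa* (1.82), *Vegfb* (1.78), *Vegfc* (1.07, not called), *Pgf* (1.66) and *Angpt1* (1.72) in the intestine. The same shift in all genes came with the scale itself. RUVg with 1 spike-in factor in DESeq2 called 2, 0, 0, 2 and 5. Without the fold threshold 2 genes were called in the *Eed* KO stomach (*Pdgfa* and *Pgf*) and 1 in the *Eed* KO intestine (*Vegfc*). In that intestine DESeq2 and the absence of a filter on low counts each called 1 (*Pdgfb*). Leaving out each library in turn gave 1 to 2 between the control organs, and in the other comparisons counts equal to those in the report. The cause was not tested.

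Over all genes, calls without 1 library ranged from 370 to 500 between the control organs (822 with all), 344 to 650 for the *Eed* KO stomach (916), 74 to 363 for the *Eed* KO intestine (423), 304 to 528 between the *Eed* KO organs (714), 27 to 97 for the interaction (75) and 2299 to 3126 in the adult (2944). Higher and lower calls were 273 and 549 between the control organs (70 and 85 with spike-in scaling), 785 and 131 in the *Eed* KO stomach (15419 and 19 with spike-in scaling, 386 and 310 with RUVg), 386 and 37 in the *Eed* KO intestine (13664 and 24, 324 and 153), 237 and 477 between the *Eed* KO organs (20 and 95 with spike-in scaling), 31 and 44 for the interaction (0 and 20, 131 and 107) and 1856 and 1088 in the adult (1154 and 1321 with spike-in scaling). 

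Replicate numbers are shared between groups, but nothing in the labels ties them to embryos or mice. According to the methods of the study, both organs were dissected from each embryo, but which libraries shared embryos is not stated. The main tests used no pairing of the organs. Deviations of same-numbered libraries correlated at 0.265 between the control organs, 0.628 between the *Eed* KO organs, 0.099 and 0.047 between genotypes and -0.06 in the adult. With a replicate block, 3 ligand genes were called between the control organs, *Pdgfb* being added, 2 between the *Eed* KO organs, 0 in the *Eed* KO stomach, the *Eed* KO intestine and the interaction, and 5 in the adult, so that the block changed no other call. With 2 libraries a group, *Pdgfb* and *Angpt2* in the embryo and *Vegfa*, *Vegfb* and *Pdgfb* in the adult rest on the fewest counts.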
